A study of Mus musculus with 12 samples.

Results

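The genes described here are mouse protein-coding genes whose symbol is Zfp followed by a number alone, a naming series that covers most zinc finger proteins without a name of their own. Of 365 such genes in the GENCODE M21 annotation, Zfp36, an RNA-binding protein with another type of finger, and Zfp683, a named transcription factor of T cells, were left out. Of the remaining 363, 251 had a mean of at least 3 CPM (the count of a gene scaled to a common total of gene counts per library) over the 12 libraries and make up the set, out of 55401 gene identifiers in the tables. They were thus selected on 1 measured value, the mean level over all libraries. The 2 genes just inside the threshold were Zfp459 (3.23 CPM) and Zfp78 (3.22 CPM), and the 2 just outside it were Zfp629 (2.99 CPM) and Zfp689 (2.89 CPM). The 112 genes below it had a median of 0.519 CPM, and 11 of these had no count in any library.

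The study sequenced poly(A) RNA of OT-I CD8 T cells, whose transgenic receptor recognises an ovalbumin peptide, in 4 groups of 3 libraries. Day 14 and day 4 libraries came from CD44+ OT-I cells sorted out of B78ChOVA tumours, a mouse melanoma line carrying ovalbumin, 14 or 4 days after their transfer into C57Bl6/J mice, and the labels call both groups exhausted. Effector libraries came from OT-I cells stimulated with antigen in culture for 5 days. Naive libraries came from OT-I cells of lymph nodes of OT-I mice without a tumour. The labels do not say whether the 3 libraries of a group came from separate mice or cultures, so the p-values measure the spread between these libraries, which may be technical. All cells share 1 receptor specificity, and the effector cells were made outside an animal.

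A C2H2 zinc finger is a short fold held by a zinc ion, and proteins of this kind string several fingers together to read DNA. Many carry a KRAB domain before the fingers, which binds the co-repressor TRIM28 (KAP1) and through it the H3K9 methyltransferase SETDB1, HP1 proteins and the NuRD complex. KRAB zinc finger genes arose largely by repeated local duplication, lie in clusters, and are best known for silencing transposable elements. The Zfp symbol itself states no function, and some bearers act on RNA, ribosomes or ubiquitin.

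Promoter sequence is shown for 3 genes with some of the smallest p-values across the 4 groups, 2 of which were lower and 1 higher in tumour-infiltrating cells. Each is the 250 bases before the RefSeq start on GRCm38.p6, 5′ to 3′ on the strand of the gene, and windows with any annotated exon were passed over. Capitals mark the GC-rich word CCCGCC on either strand. Zfp386 lies on the + strand (chr12:116047474-116047723), Zfp329 on the − strand (chr7:12818861-12819110) and Zfp52 on the + strand (chr17:21535289-21535538).
Zfp386: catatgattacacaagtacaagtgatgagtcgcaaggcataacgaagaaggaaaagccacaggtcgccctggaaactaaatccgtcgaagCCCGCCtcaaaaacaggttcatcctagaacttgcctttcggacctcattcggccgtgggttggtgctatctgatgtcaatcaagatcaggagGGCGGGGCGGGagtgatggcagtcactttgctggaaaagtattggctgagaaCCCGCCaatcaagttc
Zfp329: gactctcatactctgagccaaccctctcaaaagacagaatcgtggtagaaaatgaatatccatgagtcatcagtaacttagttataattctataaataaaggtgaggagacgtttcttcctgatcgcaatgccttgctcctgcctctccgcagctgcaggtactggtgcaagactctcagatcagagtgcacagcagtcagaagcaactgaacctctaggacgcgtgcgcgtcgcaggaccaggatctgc
Zfp52: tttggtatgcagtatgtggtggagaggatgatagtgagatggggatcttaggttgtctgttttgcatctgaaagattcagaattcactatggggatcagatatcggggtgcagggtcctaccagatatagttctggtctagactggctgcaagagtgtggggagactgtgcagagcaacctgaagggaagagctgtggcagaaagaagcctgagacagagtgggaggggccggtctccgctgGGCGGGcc

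The Zfp386 window held 4 matches to CCCGCC, the Zfp52 window 1 and the Zfp329 window none. These windows were 50.4%, 52.8% and 48.4% G or C for Zfp386, Zfp52 and Zfp329. RefSeq promoter windows from 250 bases before to 50 bases after the start were given for 211 of the 251 genes. On either strand, CCCGCC stood in 49.8% of these windows and in 65.6% of the 8005 windows of protein-coding genes with a mean of at least 3 CPM. The ETS core CCGGAAG stood in 22.3% of Zfp windows against 21.2% of those 8005, the NRF1 core TGCGCA in 11.4% against 16.1%, the YY1 core AAGATGG in 9.48% against 8.0%, and the E2F core TTTCGCG in 2.84% against 1.90%. Of the Zfp windows, 154 belonged to genes called lower at day 14 than in naive cells. The CCCGCC word was in 48.7% of these 154 and in 52.6% of the other 57, and CCGGAAG was in 23.4% and 19.3%. The median G or C share was 54.3% for the Zfp genes, against 61.3% for the 8005. These are matches of letters and carry no test.

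Zfp transcripts as a class were less abundant in OT-I cells from the tumour than in either group from outside it. Summed over all 251 genes, the level was 7823, 7982 and 7896 CPM in day 14 libraries, 8021, 7975 and 7946 CPM in day 4 libraries, 13287, 12496 and 13502 CPM in effector libraries, and 12313, 11582 and 12078 CPM in naive libraries. All 6 tumour libraries lay below all 6 others, with no overlap. Means were 7900 ± 79.5 CPM at day 14, 7981 ± 37.9 CPM at day 4, 13095 ± 529.5 CPM in effector cells and 11991 ± 373.4 CPM in naive cells (SD, n = 3 each). These sums and the levels per library below are TMM-scaled. Scaled to library totals, the means were 7840, 8038, 12448 and 12557 CPM in day 14, day 4, effector and naive cells. The order of effector and naive cells thus depended on the scaling. As a share of all gene counts, the set held 0.763% to 0.827% of a tumour library and 1.19% to 1.30% of any other. In bulk RNA, fewer cells of a type and less RNA per cell cannot be told apart.

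**Figure D1:**
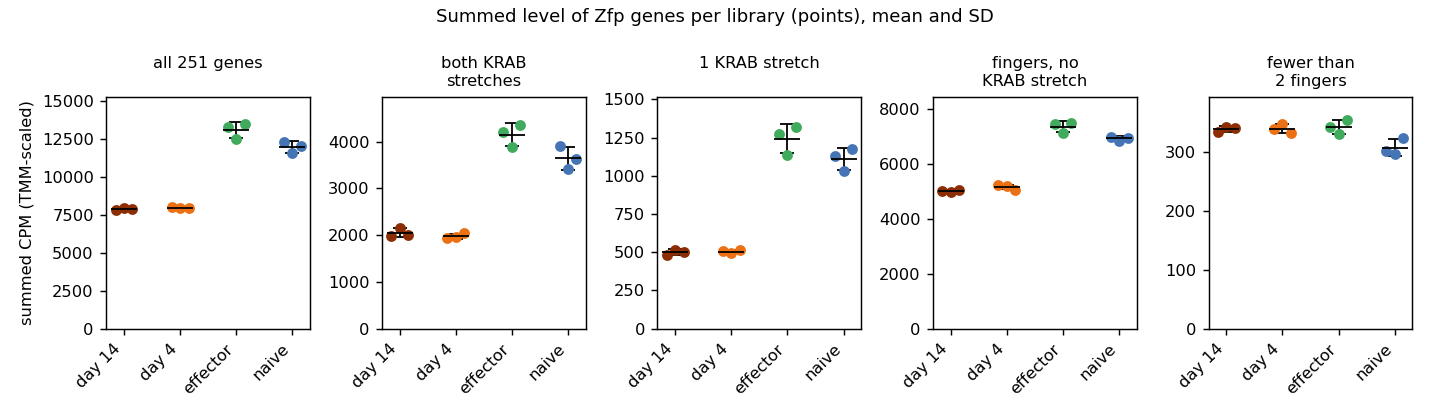
Summed CPM (TMM-scaled) per library on the vertical axis, for all 251 Zfp genes and for 4 classes by the make-up of the protein, with groups in the order day 14, day 4, effector and naive. Points are libraries and bars the mean and SD of 3. In every panel but the last, for the 11 genes with fewer than 2 fingers, all 6 tumour libraries lie below the effector and naive libraries.

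All 251 genes passed the filter on low counts, and 214 of them differed among the 4 groups in edgeR's quasi-likelihood test at a Benjamini-Hochberg adjusted p under 0.05, where 74.8% of the 16426 genes tested and 83.0% of those with a mean of at least 3 CPM also did. At day 14 against naive cells, 175 Zfp genes fell and 19 rose, where 28.5% of all genes tested were called lower and 33.6% higher, and 32.6% and 35.9% of those with a mean of at least 3 CPM. The median log2 fold change was −0.78 over the Zfp genes and 0.04 over all genes. At day 4 against naive cells, 173 fell and 19 rose, beside 28.8% and 33.4% of all genes (33.7% and 35.4% of those with at least 3 CPM), with a median of −0.82 over the Zfp genes and 0.03 over all. Against effector cells, 174 fell and 16 rose at day 14 (28.4% and 32.6% of all genes, 34.8% and 33.3% of those with at least 3 CPM; median −0.87), and 178 fell and 15 rose at day 4 (29.2% and 32.7%, and 36.3% and 33.4%; median −0.90). These 4 contrasts share libraries and are not independent of each other. Of the genes called at day 14 against naive, 154 lower and 17 higher ones were called whichever library was left out. A call with a fitted fall of at least 2-fold against naive was made for 99 Zfp genes at day 14 and 97 at day 4, beside 16.8% and 17.0% of all genes tested and 15.6% and 16.5% of those with at least 3 CPM.

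**Figure D2:**
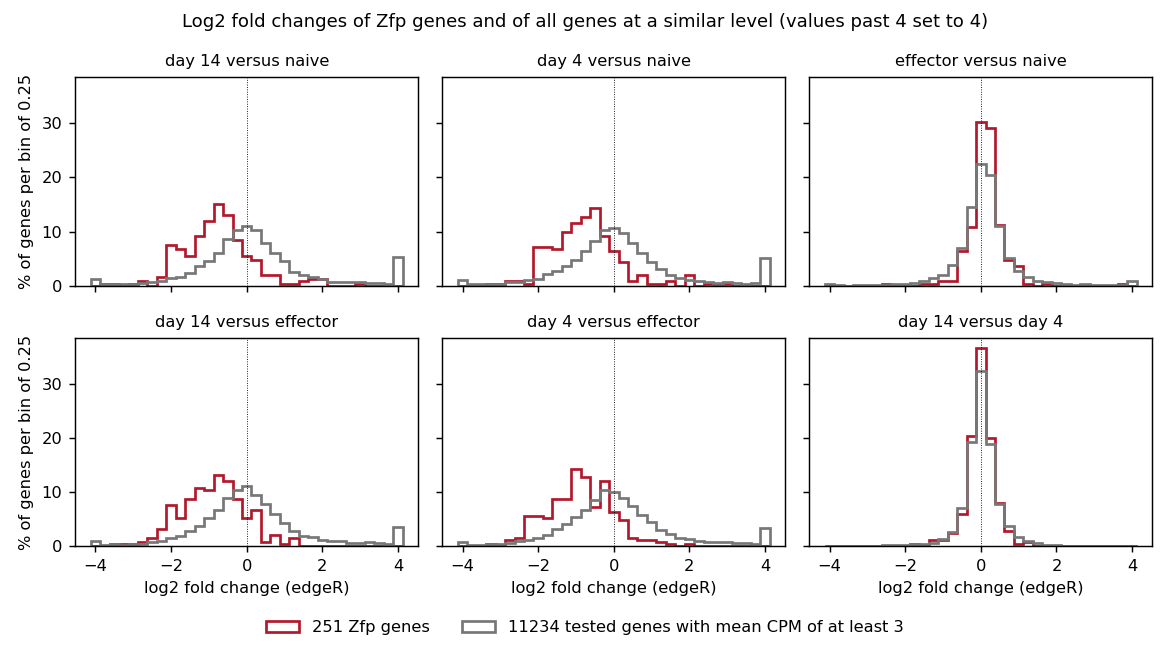
Distribution of log2 fold changes in 6 contrasts, as the share of genes per bin on the vertical axis, for 251 Zfp genes and for the 11234 tested genes with a mean of at least 3 CPM. Values past 4 in either direction are drawn at that end of the axis. The Zfp distribution sits left of the other in the 4 contrasts of a tumour group with naive or effector cells, with medians from −0.78 to −0.90.

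A gene can pass a threshold on its mean through the group where it is high, so the calls were also counted by level. The 221 Zfp genes with at least 3 CPM in each of the 4 groups held 155 of the calls lower and 16 of the calls higher at day 14 against naive, with a median of −0.74. Of the 30 others in the set, 20 were lower and 3 higher. Among the 61 Zfp genes below the threshold that still passed the count filter, the pattern was not the same: 13 were lower and 21 higher at day 14, and the median was −0.27. Within the set the split held at every level, with 48 lower and 6 higher of the 84 least abundant genes, 67 and 5 of the middle 83, and 60 and 8 of the 84 most abundant.

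**Figure D3:**
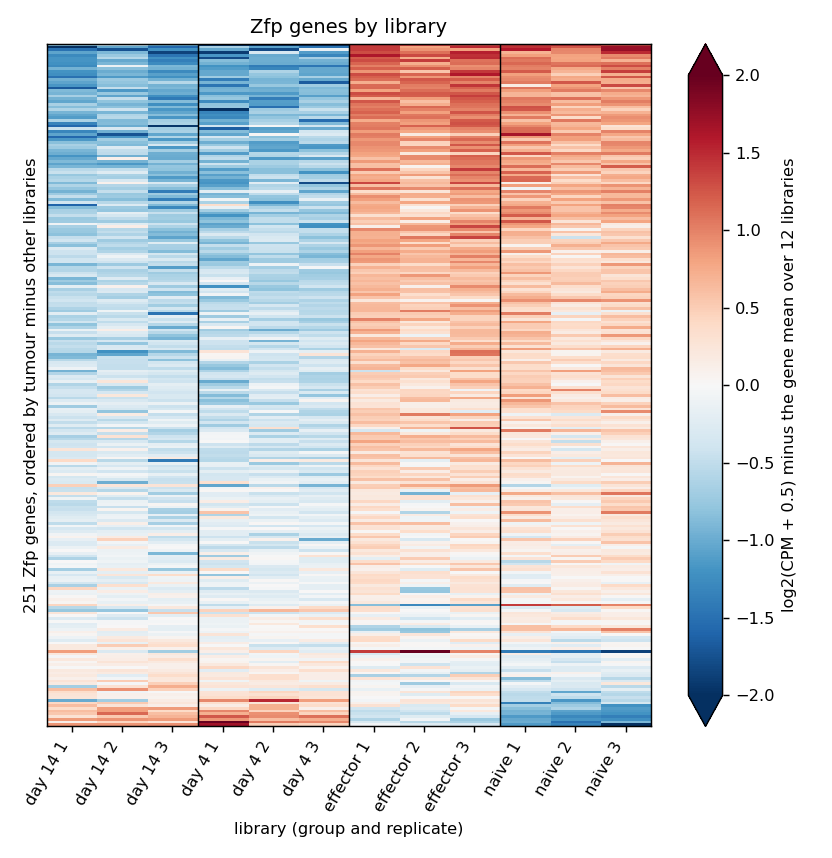
Rows are the 251 Zfp genes and columns the 12 libraries in the order day 14, day 4, effector and naive, and colour is log2(CPM + 0.5) minus the mean of the gene over the 12 libraries. Most rows are low in the 6 tumour libraries and high in the 6 others, and 10 genes show the opposite without overlap.

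The split between the tumour and the other libraries was complete for most of these genes. In 150 of the 251 (59.8%) every one of the 6 tumour libraries lay below every one of the 6 others, which held for 19.5% of all genes tested and 24.3% of those with a mean of at least 3 CPM. In 10 (3.98%) every tumour library lay above, which held for 23.9% and 25.2%. These 10 were Zfp106, Zfp52, Zfp800, Zfp367, Zfp382, Zfp948, Zfp41, Zfp703, Zfp821 and Zfp473. In the other 91 the libraries overlapped.

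The tumour libraries also differed in what else they held. The sum of 6 CD8 T cell markers was 3206 to 3348 CPM at day 14, 2421 to 2921 CPM at day 4, 4558 to 4837 CPM in effector and 3723 to 4070 CPM in naive libraries. Against naive, 2 of the 6 were called lower at day 14 and 4 at day 4, and 0 higher at either time. Against effector, 4 were called lower at day 14 and 5 at day 4, and 0 higher. The markers did not move alike: at day 14 Cd8b1 had 361 to 409 CPM against 861 to 958 CPM in naive libraries. Cd8a had 1295 to 1328 CPM at day 14 against 1135 to 1174 CPM in naive libraries. All 8 melanoma markers were higher in the tumour groups, with sums of 415.8 to 1614 CPM at day 14, 670.1 to 1005 CPM at day 4, 36.8 to 42.4 CPM in effector and 26.2 to 32.7 CPM in naive libraries; Tyrp1, Tyr, S100b and Sox10 had no count in any effector library and S100b none in any naive one. The 10 macrophage markers summed to 66.7 to 119.6 CPM at day 14, 64.6 to 131.8 CPM at day 4, 6.19 to 10.1 CPM in effector libraries, where C1qa, C1qb and C1qc were at 0, and 14.5 to 27.6 CPM in naive libraries. Of these 10, 3 were called higher at day 14 and 3 at day 4 than in naive cells, 9 were called higher at each time than in effector cells, and Apoe and Cd68 made up most of the sum in each tumour library. The 7 dendritic cell and MHC class II markers reached 158.7 to 209.1, 119.1 to 150.4, 7.55 to 20.7 and 8.27 to 31.7 CPM in day 14, day 4, effector and naive libraries. The 7 cycling genes summed to 3361 to 4365 CPM at day 14 and 3641 to 3875 CPM at day 4, against 139.8 to 959.1 CPM in effector and 128.0 to 300.9 CPM in naive libraries. Effector replicate 2 alone gave the 959.1 CPM, and the median of the effector libraries was 200.7 CPM. Gene counts per library were 11937053 to 17094006, and TMM factors 0.94 to 1.06. The part of these other cells and of cycling in the Zfp levels was not tested.

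The fall was seen with and without a KRAB pattern starting in the first 200 residues, and its median was wider in genes with one. Both stretches of the KRAB pattern were found in the translated coding sequence of 106 genes, which held 2 to 33 fingers with a median of 12. At day 14 against naive, 83 of these fell and 3 rose, with a median of −0.92. Of 35 genes with 1 of the 2 stretches, 29 fell and 1 rose (median −1.18). Of 99 genes with at least 2 fingers and no KRAB stretch in those residues, 61 fell and 11 rose (median −0.57). A stretch beyond them was not sought, and one within them that departs from the pattern would be missed, so this class may hold KRAB genes. Of 11 genes in which fewer than 2 fingers were found, 2 fell and 4 rose (median 0.21). Summed levels of the 106 genes averaged 2050 ± 96.2 CPM at day 14, 1977 ± 50.9 CPM at day 4, 4148 ± 237.9 CPM in effector and 3643 ± 246.8 CPM in naive cells. Those of the 99 genes without a stretch averaged 5011 ± 44.9, 5160 ± 85.6, 7362 ± 190.6 and 6928 ± 75.3 CPM in day 14, day 4, effector and naive cells. The 11 genes with fewer than 2 fingers averaged 339.2 ± 4.75, 340.1 ± 8.07, 342.8 ± 12.4 and 307.6 ± 14.1 CPM in the same groups. The classes were described by counts and were not tested against each other.

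By number of fingers, 112 of the 142 genes with at least 10 fell at day 14 against naive and 4 rose (median −0.93), and of the 109 with fewer, 63 fell and 15 rose (median −0.58). The BTB-domain zinc finger genes named Zbtb, another family of C2H2 factors, had 15 lower and 8 higher of 32 genes with a mean of at least 3 CPM (median −0.35). Copies of these genes share sequence and some overlap a neighbour, so the calls were counted without such genes. Of 173 Zfp genes that share no exon with another gene, 123 fell and 9 rose (median −0.80). Of 170 with under 5% of their 50-base words found in another gene, 118 fell and 14 rose (median −0.75), and of the other 81, 57 fell and 5 rose (median −0.82).

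**Figure D4:**
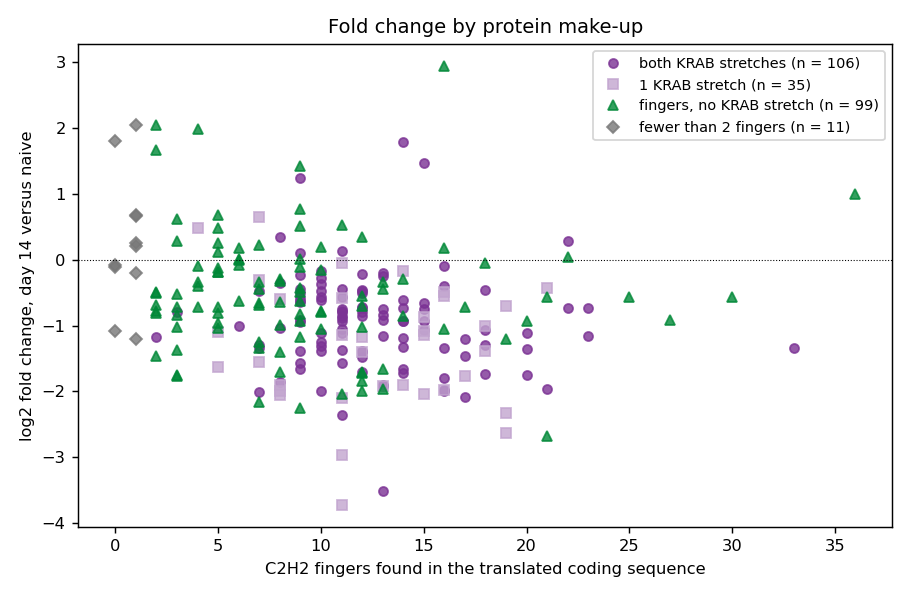
Each point is 1 Zfp gene, with the number of C2H2 fingers found in its translated coding sequence on the horizontal axis and its log2 fold change at day 14 against naive on the vertical axis, marked by class. Points of the genes with both KRAB stretches (n = 106) lie mostly below 0, and 15 of the 19 genes called higher have fewer than 10 fingers.

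Among the genes lower in the tumour, Zfp652, whose protein has 7 fingers and is known as a partner of the co-repressor CBFA2T3, differed most clearly among the groups. Zfp652 (ENSMUSG00000075595, chr11:95712673-95835115) had 65.4, 84.5 and 58.7 CPM at day 14, 29.9, 30.5 and 30.1 CPM at day 4, 321, 310 and 296 CPM in effector, and 319, 325 and 288 CPM in naive libraries. Every tumour library was far below every other, and day 4 was below day 14 without overlap. The log2 fold change against naive was −2.16 ± 0.11 (SE) at day 14 (edgeR adjusted p = 1.43e-10) and −3.36 ± 0.12 at day 4 (adjusted p = 2.96e-12), and between day 14 and day 4 it was 1.20 ± 0.11 (adjusted p = 5.05e-06). The difference between effector and naive cells did not pass (−0.01, edgeR adjusted p = 0.987). In the annotation, 20% of the exon length of Zfp652 overlaps Abi3, Phospho1 and Zfp652os, and reads there cannot be assigned by strand.

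Zfp386 and Zfp329, whose promoter windows are printed above, were lower in the tumour to a similar extent. Zfp386 (ENSMUSG00000042063), with a KRAB pattern and 9 fingers, had 52.4, 59.3 and 50.6 CPM at day 14, 45.2, 45.5 and 55.5 CPM at day 4, 249.6, 236.2 and 237.7 CPM in effector, and 160.3, 151.1 and 168.1 CPM in naive libraries. The tumour groups overlapped each other and lay below naive, and naive lay below effector. Zfp386 changed by −1.56 ± 0.10 at day 14 and by −1.71 at day 4 against naive (edgeR adjusted p = 1.22e-09 and 4.72e-10), and by 0.59 in effector against naive (adjusted p = 0.000275). Zfp329 (ENSMUSG00000057894), with 12 fingers, had 35.9, 42.3 and 36.5 CPM at day 14, 26.8, 37.0 and 34.6 CPM at day 4, 154.1, 167.6 and 163.8 CPM in effector, and 137.7, 116.9 and 118.3 CPM in naive libraries. Its log2 fold change against naive was −1.70 ± 0.12 at day 14 and −1.92 at day 4 (edgeR adjusted p = 4.21e-09 and 1.1e-09).

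The widest falls at day 14 against naive among genes of at least 10 CPM were those of Zfp60 and Zfp397. Zfp60 (chr7:27731389-27753702), with 19 fingers and 1 KRAB stretch, had 7.46, 9.76 and 9.20 CPM at day 14, 13.1, 12.1 and 13.7 CPM at day 4, 50.9, 40.5 and 44.2 CPM in effector, and 42.2, 37.8 and 52.3 CPM in naive libraries. It changed by −2.32 ± 0.16 at day 14 (edgeR adjusted p = 3.68e-09) and by −1.76 at day 4 against naive. Zfp397, with 9 fingers, had 24.6, 30.4 and 23.8 CPM at day 14, 29.9, 28.8 and 28.8 CPM at day 4, 130.1, 96.3 and 125.9 CPM in effector, and 128, 123 and 125 CPM in naive libraries. In both genes the tumour libraries lay below all others, and effector and naive libraries overlapped. Zfp397 changed by −2.25 ± 0.12 at day 14 against naive (edgeR adjusted p = 2.4e-10) and by −2.16 against effector.

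At day 14 against effector cells, Zfp113, Zfp169 and Zfp799 had the widest falls among genes of at least 10 CPM. Zfp113, on chromosome 5 and with 1 KRAB stretch, had 6.67, 9.88 and 5.81 CPM at day 14, 7.26, 8.17 and 6.55 CPM at day 4, 52.8, 42.9 and 47.6 CPM in effector, and 30.4, 29.8 and 32.8 CPM in naive libraries. The 4 groups fell into 3 levels, the tumour groups lowest, naive next and effector highest. Its log2 fold change against effector was −2.68 ± 0.18 at day 14 (edgeR adjusted p = 3.59e-09) and −2.70 at day 4. Zfp799 averaged 9.76, 10.7, 55.2 and 33.9 CPM in day 14, day 4, effector and naive cells and Zfp169 11, 13.2, 62.3 and 46.5 CPM, and against effector they changed by −2.50 each at day 14. Zfp260, on chromosome 7, averaged 43.8 ± 2.01, 37.2 ± 3.62, 182 ± 16.2 and 158 ± 14.9 CPM in the same groups, and Zfp760, on chromosome 17, averaged 8.91, 8.14, 40.8 and 35.5 CPM. Against naive, Zfp260 changed by −1.85 at day 14 and −2.08 at day 4, and Zfp760 by −1.99 and −2.12.

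**Figure D5:**
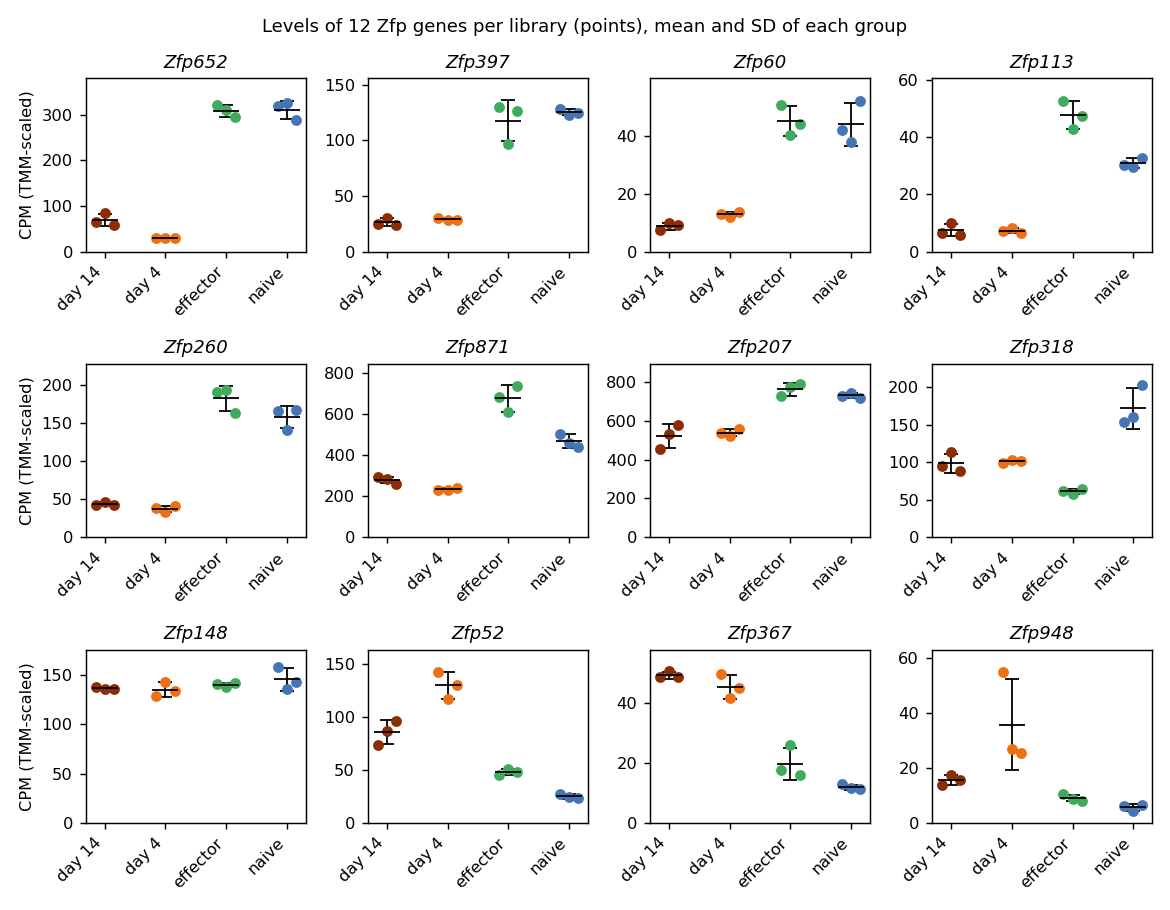
CPM (TMM-scaled) per library on the vertical axis for 12 Zfp genes, with groups in the order day 14, day 4, effector and naive. Points are libraries, and bars the mean and SD of 3. Zfp652, Zfp397, Zfp60, Zfp113, Zfp260 and Zfp871 lie low in the tumour groups, Zfp52, Zfp367 and Zfp948 lie high, and Zfp318 is lowest in effector cells.

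A few genes rose in the tumour. Zfp52 (chr17:21535539-21562601), with a KRAB pattern and 14 fingers, had 73.4, 86.9 and 96.4 CPM at day 14, 142.5, 116.5 and 130.2 CPM at day 4, 45.5, 50.8 and 47.8 CPM in effector, and 27.1, 24.3 and 23.0 CPM in naive libraries. The 4 groups did not overlap, day 4 being highest and naive lowest. Zfp52 changed by 1.79 ± 0.12 at day 14 (edgeR adjusted p = 2.26e-09) and by 2.39 at day 4 against naive (adjusted p = 9.02e-11), and by 0.95 in effector against naive (adjusted p = 2.49e-05). Its neighbour Zfp948 (chr17:21567008-21588699), with 15 fingers, had 13.9, 17.4 and 15.6 CPM at day 14, 54.7, 26.8 and 25.2 CPM at day 4, 10.3, 8.52 and 8.04 CPM in effector, and 6.13, 4.22 and 6.51 CPM in naive libraries. Day 4 replicate 1 stood above the other day 4 libraries. Zfp948 changed by 1.47 ± 0.28 at day 14 (edgeR adjusted p = 0.000257) and by 2.66 at day 4 against naive, and by −1.19 at day 14 against day 4 (adjusted p = 0.00604).

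Zfp367, a factor with 2 fingers and 10.9% of its exon length shared with Gm47513, had 48.6, 50.6 and 48.5 CPM at day 14, 49.7, 41.5 and 44.8 CPM at day 4, 17.5, 25.8 and 15.8 CPM in effector, and 12.9, 11.6 and 11.2 CPM in naive libraries. The tumour groups lay above effector, and effector above naive. Zfp367 changed by 2.05 ± 0.17 at day 14 and by 1.93 at day 4 against naive (edgeR adjusted p = 2.1e-08 and 4.12e-08). Zfp41 averaged 17.7, 16.5, 7.63 and 4.46 CPM in day 14, day 4, effector and naive cells, and changed by 1.98 at day 14 against naive (edgeR adjusted p = 1.09e-06). Of all 19 genes higher at day 14 than in naive cells, Zfp52, Zfp382 and Zfp948 had both KRAB stretches. Zfp382 averaged 26.5, 24.4, 22.4 and 11.2 CPM in the same groups, so it was higher than naive in effector cells too (1.0, edgeR adjusted p = 0.00157).

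Many of the genes lay in clusters, and many others stood alone. In most clusters most genes fell at day 14 against naive, as did 69.7% of all 251. With starts less than 500000 bases apart, 11 runs of at least 5 genes held 97 of the 251, and 96 genes stood alone. The largest, on chromosome 17 (chr17:21008903-23564238 on GRCm38), held 18 genes, of which 12 fell at day 14 against naive and 2, Zfp52 and Zfp948, rose (median −0.86). In this cluster Zfp51 averaged 38.5, 27.7, 48.3 and 62.8 CPM and Zfp53 46.3, 41.2, 98.9 and 97.9 CPM in day 14, day 4, effector and naive cells. Zfp51 starts at 21450374 and Zfp53 at 21488998, beside Zfp52, and at day 14 against naive they changed by −0.71 and −1.08. The cluster chr13:67038596-67827002 held 17 genes, of which 15 fell and none rose (median −1.38), Zfp459 and Zfp58 being the other 2. The cluster chr7:29768552-30169750 held 12 genes, of which 9 fell and Zfp382 rose. The 8 genes of chr6:47835661-48623227 included 3 that fell and 2 that rose (median 0.17). Chromosome 7 held 62 of the genes, of which 51 fell and 2 rose.

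Activation in culture moved few of these genes, and less evenly. In effector against naive cells 35 rose and 12 fell, beside 14.6% and 10.4% of all genes tested (19.6% and 11.9% of those with at least 3 CPM), with a median of 0.12 over the Zfp genes. With library totals in place of TMM factors the counts were 20 higher and 18 lower and the median −0.015, while the median of all genes moved to −0.10, so the set has no fixed direction here. Without effector replicate 2, the library with the most cycling transcripts of its group, 3 were lower, without naive replicate 1, 4 were lower, and without naive replicate 2 there were 23 higher and 7 lower. The part of cycling in these counts was not tested. The widest fall among genes of at least 10 CPM was that of Zfp318, a nuclear protein needed for IgD expression in mouse B cells. Zfp318 had 94.5, 113 and 88.3 CPM at day 14, 99.0, 103 and 102 CPM at day 4, 62.0, 57.9 and 64.0 CPM in effector, and 153, 160 and 203 CPM in naive libraries. Effector libraries were lowest, naive highest and the tumour groups between, with no overlap other than that of day 14 and day 4. Zfp318 changed by −1.49 ± 0.12 in effector against naive (edgeR adjusted p = 2.57e-07), by −0.80 at day 14 against naive (adjusted p = 1.35e-05) and by 0.69 at day 14 against effector (adjusted p = 7.5e-05). Zfp7 averaged 16.7, 14.0, 23.9 and 42.4 CPM in day 14, day 4, effector and naive cells and changed by −0.83 in effector against naive (edgeR adjusted p = 0.000208), and 14.2% of its exon length is shared with Gm49527. Among those that rose, Zfp827 averaged 49.0, 57.4, 54.8 and 28.7 CPM in the same groups (0.93, edgeR adjusted p = 0.000361) and Zfp282 13.9, 15.4, 15.3 and 8.68 CPM (0.82, adjusted p = 0.00351).

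Between the 2 times in the tumour, 13 genes were higher and 13 lower at day 14 than at day 4, beside 7.17% and 4.91% of all genes tested (9.69% and 6.24% of those with at least 3 CPM). Of these 26, 12 were called whichever library was left out. Without day 14 replicate 2 there were 6 higher and 8 lower, without day 4 replicate 1 there were 8 lower, and without day 4 replicate 2 there were 8 higher. Beside Zfp652, Zfp142, whose protein has 36 fingers, had 126, 154 and 112.5 CPM at day 14 and 75.4, 68.0 and 64.2 CPM at day 4, against means of 75.7 CPM in effector and 65.9 CPM in naive cells. Zfp142 changed by 0.92 at day 14 against day 4 (edgeR adjusted p = 6.03e-05), and 18.5% of its exon length overlaps Plcd4. Zfp62, with 25 fingers, had 64.8, 64.1 and 79.4 CPM at day 14 and 152, 174 and 161 CPM at day 4, against means of 129 CPM in effector and 103 CPM in naive cells. Day 14 libraries lay below naive and day 4 libraries above it, and Zfp62 changed by −1.22 at day 14 against day 4 (edgeR adjusted p = 7.68e-06). Zfp281, a chromatin-associated factor of mouse embryonic stem cells, averaged 66.2, 121, 206 and 134 CPM in day 14, day 4, effector and naive cells, and changed by −0.87 at day 14 against day 4 (edgeR adjusted p = 0.0111).

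Per kilobase of exon, the most abundant was Zfp207, a spindle assembly factor, with a mean of 95.8 CPM per kb over the 12 libraries. It was followed by Zfp292 (48.2), Zfp869 (46.1), Zfp106 (39.8), Zfp809 (37.1) and Zfp871 (37.0 CPM per kb). Zfp207 averaged 521 CPM at day 14, 539 at day 4, 763 in effector and 732 in naive cells, a log2 change of −0.49 at day 14 against naive. Zfp871 averaged 278, 234, 677 and 468 CPM in day 14, day 4, effector and naive cells and fell by 0.75 at day 14 and by 1.0 at day 4 against naive on the log2 scale. Zfp106, an RNA-binding protein, went against the others with 447, 520, 409 and 290 CPM in the same groups, a log2 change of 0.62 at day 14 and 0.84 at day 4 against naive, and 26.1% of its exon length overlaps Gm26899.

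Of 11 genes with a known part in silencing or chromatin, 8 (72.7%) fell and 1 rose at day 14 against naive, near the 69.7% that fell over all 251 Zfp genes. At day 4, 6 of the 11 fell, 1 rose and 4 were not called. Zfp809, which recruits TRIM28 to retroviral DNA in mice, averaged 90.9, 81.0, 142 and 127 CPM in day 14, day 4, effector and naive cells (−0.48 at day 14 against naive). Zfp568, which silences a transcript of Igf2 in mouse embryos, averaged 19.9, 29.9, 35.1 and 36.6 CPM (−0.88). Zfp217, found with the LSD1 and CoREST co-repressors, averaged 57.3, 60, 160 and 152 CPM (−1.40). Zfp644, a partner of the G9a and GLP methyltransferases, averaged 81.8, 85.9, 100 and 130 CPM (−0.66). Zfp687 and Zfp592, partners of ZMYND8, changed by −0.42 and −0.65, and Zfp143, a promoter factor found at chromatin loops, by −0.69. The 1 that rose was Zfp827 (0.77), known from human cells to recruit NuRD to telomeres. Zfp410, an activator of Chd4, averaged 68.6, 65.1, 51.7 and 57.2 CPM and did not pass (0.26 at day 14 against naive, edgeR adjusted p = 0.0972), nor did Zfp148, with 137, 135, 140 and 146 CPM (−0.09, adjusted p = 0.349).

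Genes with other known roles were taken from short lists, which were not tested as sets. Of 6 that act on RNA, ribosomes or the spindle, 2 rose and 2 fell at day 14 against naive (33.3% each). Over all 251 Zfp genes 7.57% rose and 69.7% fell, and over all genes tested 33.6% and 28.5%. Zfp598, a ubiquitin ligase that senses collided ribosomes, averaged 52.0, 41.4, 40.6 and 32.7 CPM in day 14, day 4, effector and naive cells (0.67, edgeR adjusted p = 0.00021). Zfp638, on the same list, averaged 141, 143, 241 and 226 CPM (−0.68). It is also known from human cells to silence unintegrated retroviral DNA, but was not counted with the silencing genes above. Of 3 ligases or ubiquitin pathway genes, the E3 ligase Zfp91 rose, with 73.4, 62.8, 62.3 and 52.8 CPM (0.47, edgeR adjusted p = 0.000359), Zfp746 (PARIS) changed by −0.52, and the SUMO ligase Zfp451 did not pass (0.01, adjusted p = 0.924). Of 3 genes with roles in lymphocytes, Zfp318 fell, as given above. Zfp335, needed for T cell maturation in mice, averaged 48.1, 40.6, 58.5 and 60.6 CPM (−0.34), with 28.3% of its exon length shared with other genes. Zfp609, known in mouse thymocytes, averaged 45.3, 49.9, 42.7 and 28.3 CPM (0.68). Of 9 further genes with a known role, 5 (55.6%) fell and 2 (22.2%) rose. Zfp110, a binding partner of the p75 neurotrophin receptor, averaged 30.1, 31.2, 67.8 and 64.6 CPM (−1.10), and Zfp703, a co-repressor, 11.6, 12.3, 6.38 and 3.32 CPM (1.80).

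A list of 25 genes held partners of KRAB proteins and more general heterochromatin and DNA methylation factors. Of these, 7 (28%) were lower and 11 (44%) higher at day 14 than in naive cells. Of all genes tested 28.5% and 33.6% were, and of those with at least 3 CPM 32.6% and 35.9%. At day 4 they were 6 (24%) lower and 12 (48%) higher, beside 28.8% and 33.4% of all genes (33.7% and 35.4% of those with at least 3 CPM). Trim28 averaged 79.5, 90.2, 52.3 and 66.3 CPM in day 14, day 4, effector and naive cells, a log2 change against naive of 0.26 at day 14 and 0.44 at day 4, both called. Setdb1 averaged 93.9, 114.9, 113.6 and 125.8 CPM and was lower at day 14 (−0.42). The widest changes at day 14 against naive were those of Uhrf1 (3.05 ± 0.77), a reader of hemimethylated DNA that is high in cycling cells, and Chd3 (−1.82 ± 0.12), a helicase of NuRD. Chd3 averaged 196, 237, 1294 and 692 CPM in day 14, day 4, effector and naive cells. Daxx, Fam208a and Atf7ip changed by −1.40, −1.26 and −1.15, and Cbx5, which encodes HP1 alpha, by 1.33.

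The 37 genes not called in the test of the 4 groups had mean levels of 3.47 to 139 CPM, with a median of 11.2 CPM, and Zfp148, Zfp131, Zfp451, Zfp706 and Zfp407 were the most abundant of them. Some changes as wide or wider stood in genes of few counts, which were chosen after their values were seen. Zfp493 averaged 0.680, 1.19, 7.78 and 9.20 CPM in day 14, day 4, effector and naive cells (−3.72 at day 14 against naive, and −4.36 without day 14 replicate 2). Zfp14 averaged 0.885, 1.65, 7.51 and 10.2 CPM (−3.51). Zfp473 averaged 6.33, 6.80, 2.67 and 0.815 CPM (2.94), and Zfp704 4.48, 4.58, 13.4 and 1.07 CPM, with a change of 3.63 in effector against naive cells.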

How the data were processed

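For each of 12 libraries the authors deposited a table with the read count of every gene. Per the submitters' processing notes, the authors used fastp 0.19.6, STAR 2.6.1b and GRCm38. How reads were counted, and on which annotation, is not given in the sources used here. The unstranded counts were used, since the column of the sense strand held only 50.1% to 50.2% of the stranded counts. Of all reads, 20.7% to 30.2% lay outside genes, 5.90% to 7.29% had several places in the genome and 3.22% to 3.81% fell on more than 1 gene, and none of these was counted for a gene. The share outside genes was 25.8% to 30.2% in naive libraries, above every other library. It was 22.7% to 25.1% at day 14, 20.7% to 24.5% at day 4 and 21.6% to 22.2% in effector libraries. The part of this difference in the results was not tested. Summary lines were left out of library sizes.

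Symbols, spans and coding sequences came from GENCODE M21, in which 55141 of 55401 identifiers matched. Counts were filtered with filterByExpr (16426 genes) and scaled with TMM factors, and all 12 libraries entered 1 edgeR quasi-likelihood fit (8 residual degrees of freedom; edgeR 4.0.16, limma 3.58.1, R 4.3.3). For 6 contrasts and a test of the 4 groups, p-values were adjusted over all genes tested (Benjamini-Hochberg). DESeq2 1.42.0 and other settings were alternatives. Tables and plots used python 3.11.15, pandas 2.3.3 and matplotlib 3.10.9. Errors of levels are SDs (n = 3), and those of log2 fold changes are SEs.

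Fingers and KRAB stretches were sought by pattern in translated coding sequences, since no protein table was used here. The KRAB search began in the first 200 residues, with the second stretch within 45 residues of the first. The class with 1 KRAB stretch was added after seeing the data. Named genes were, per contrast, the 4 highest and 4 lowest fold changes among called genes with a mean of at least 10 CPM whose libraries did not overlap between the 2 groups, the 6 most abundant per kb, and fixed role lists; the text gives those that most of the results turn on. Promoters were to be those of the smallest p across 4 groups, and Zfp652, Zfp260 and Zfp169 were passed over because their windows hold exons. The genes and lists were chosen with earlier results of these data known. Same-numbered libraries did not deviate together (r from −0.088 to 0.102), so numbers were not used as pairs.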

Additional observations from a re-analysis of the deposited data

How the results depend on the processing

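Counts of Zfp genes called in the 4 contrasts of tumour with other cells changed by less than 1.5 times under DESeq2, other scaling, no filter, fits of the 2 groups alone and any library left out. With library totals as scaling the median log2 fold change was −0.85 at day 14 against naive, −0.80 and −0.81 at day 14 and day 4 against effector, and −0.015 in effector against naive, where 20 genes were higher. With 1 library left out, the median ranged from −0.82 to −0.71 at day 14 against naive, from −0.84 to −0.76 at day 4 against naive, from −0.93 to −0.81 at day 14 against effector, from −0.95 to −0.80 at day 4 against effector and from 0.06 to 0.17 in effector against naive. In that last contrast 3 to 12 genes were lower and 23 to 37 higher, and at day 14 against day 4 8 to 13 were lower and 6 to 14 higher. The cause was not tested. Genes named by the rule above were compared with the main fit in each of the 6 contrasts under every other setting. Of these comparisons, 5547 kept the side of the threshold, 137 lost the call and 28 gained one. Direction reversed in 0 of those with a call in either fit. Without a call in either, a change of direction was not counted. Genes given for other reasons, such as Zfp386, Zfp329 and Zfp493, were not among them.

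The labels do not say whether the replicate numbers pair the libraries. With the numbers as a block, 175 genes were lower at day 14 and 168 at day 4 than in naive cells. In effector against naive cells 9 were lower and 35 higher, and at day 14 against day 4 there were 12 lower and 13 higher. Among the 4 groups 211 differed. Depth limits genes near 3 CPM, and 3 libraries a group limit small changes.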
